A study of Mus musculus with 8 samples.

Results

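The developmental pluripotency-associated genes Dppa2, Dppa3, Dppa4 and Dppa5a were followed in mouse embryonic stem cells (ESCs) before and after differentiation. They were taken by symbol, and all 4 were found among the 24421 gene symbols counted in each library. The genes share a name because they are active in pluripotent cells, and they do not form a single protein family. R1 mouse ESCs formed the Undiff group, kept in ESC medium with leukaemia inhibitory factor. The Day4 group consisted of embryoid bodies, free-floating aggregates grown from R1 cells for 4 days without leukaemia inhibitory factor and then treated for 4 days with retinoic acid at 2 µM (a protocol label writes 2 mM). The labels give embryoid bodies as the tissue of both groups, although Undiff cells received no embryoid body step in the methods. Both groups derive from 1 cell line, and no arm without retinoic acid was analysed, so the embryoid body step and the retinoic acid cannot be told apart. Each state was sequenced from 2 separately grown cultures on 2 Oxford Nanopore (ONT) platforms, which gave 8 libraries. ONT Direct RNA reads the RNA strand itself and used 500 ng of poly(A) RNA, and ONT cDNA reads PCR-amplified copies and used 50 ng.

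Dppa2 and Dppa4 are nuclear proteins with a SAP domain that bind each other and sit on chromatin. They activate genes of the 2-cell embryo, such as the Zscan4 family, and keep bivalent promoters from acquiring DNA methylation. Dppa3, also called Stella or PGC7, is a maternal factor and a primordial germ cell marker that shields the maternal genome from demethylation and binds Uhrf1. Dppa5a, also called Esg1, is a KH-domain RNA-binding protein of ESCs and early embryos, related to the oocyte proteins Ooep and Khdc3.

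In GENCODE release 21 of the mouse annotation (GRCm38, the build also called mm10) all 4 were protein-coding genes whose exons overlapped no exon of another gene. Dppa4 (ENSMUSG00000058550.15) lay at chr16:48283733-48294237 on the plus strand, with 7 exons in its longest transcript of 1479 bases. Dppa2 (ENSMUSG00000072419.5) followed on the same strand at chr16:48303908-48319723, with 8 exons and 2447 bases, and the gap between the 2 genes was 9670 bases. Dppa3 (ENSMUSG00000046323.8) lay at chr6:122626410-122630272 on the plus strand, with 4 exons and 833 bases. Dppa5a (ENSMUSG00000060461.5) lay at chr9:78367052-78368177 on the minus strand, with 3 exons and 619 bases.

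The first 60 bases of each GENCODE coding sequence are shown because they tell the members apart and mark where copies of Dppa5a differ. They run 5′ to 3′, and capitals mark the start codon.
Dppa2: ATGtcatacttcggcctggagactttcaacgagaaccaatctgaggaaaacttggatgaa
Dppa4: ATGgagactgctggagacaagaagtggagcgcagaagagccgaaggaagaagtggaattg
Dppa3: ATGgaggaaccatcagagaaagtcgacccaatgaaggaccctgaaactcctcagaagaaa
Dppa5a: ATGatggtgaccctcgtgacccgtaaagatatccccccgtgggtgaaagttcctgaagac

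The neighbours Dppa2 and Dppa4 aligned over only part of their coding sequences, with 67.2% identity over 201 columns (bases 640 to 835 of Dppa2). Dppa5a has 2 annotated pseudogene copies on chromosome 9, Dppa5b and Dppa5c, which carry no count of their own in the table. Each matched 96.3% of 299 aligned columns of the Dppa5a coding sequence, with 9 mismatches. In the first 60 bases both copies differed from Dppa5a by G9A and T30C, counted from the first coding base, and capitals mark these bases below.
Dppa5b: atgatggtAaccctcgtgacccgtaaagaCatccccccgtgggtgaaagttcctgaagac
Dppa5c: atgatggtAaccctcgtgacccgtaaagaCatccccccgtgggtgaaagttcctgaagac
A processed copy of Dppa3 on the X chromosome, Dppa3-ps, matched 98.2% of 451 columns. Reads of low mapping quality, such as those that fit several places equally well, were not counted. The Dppa5a and Dppa3 counts may therefore be less certain than those of Dppa2 and Dppa4. Low mapping quality of any kind left out 18.5% to 27.98% of the reads of a library, of which the part due to copies is not known here, and the effect of the copies on the members was not tested.

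Reads counted on genes ranged from 283461 to 907489 in the Direct RNA libraries and from 948657 to 2088592 in the cDNA libraries. Levels are given as CPM, the number of reads in each 1000000 reads that were counted on genes. A single read was worth 0.479 to 3.53 CPM, and a count of 0 allowed a level of up to 1.44 to 10.6 CPM (3 reads). Such limits, and the 95% Wilson intervals given for single libraries, cover counting error only. All 9 pluripotency markers examined had more than 1 read in every Undiff library, and their summed level was 3416 to 7121 CPM in Undiff and 11.4 to 180 CPM in Day4. The 9 retinoic acid response markers summed to 11.5 to 81.9 CPM in Undiff and 1020 to 1773 CPM in Day4.

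Dppa5a stood apart in Undiff by its abundance. It received 1737 and 6216 reads in the Direct RNA libraries, which was 4985 and 6850 CPM. In the cDNA libraries it received 17194 and 42163 reads, or 18120 and 20190 CPM. Per kilobase of its longest transcript it ranked 2 or 3 among 24062 genes with an annotated length in every Undiff library. The 4 members together took 0.548% and 0.737% of Direct RNA reads in Undiff, and 1.90% and 2.12% of cDNA reads. Dppa5a made up 90.9% to 95.6% of those reads.

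The other members were expressed at a lower level. On the scale of CPM per kilobase in Direct RNA Undiff, the order was Dppa5a at 9559 ± 2130 (SD, n = 2), Dppa4 at 149 ± 21.2, Dppa3 at 97.8 ± 26.3 and Dppa2 at 84.6 ± 16.4. Dppa3 and Dppa2 overlapped between their replicates in that order, and the other neighbours did not. In cDNA Undiff, Dppa5a again came first at 30950 ± 2356 CPM per kilobase. Dppa3 followed at 319 ± 16.5, then Dppa4 at 272 ± 19.5 and Dppa2 at 115 ± 56.4, with no overlap between neighbours. The places of Dppa3 and Dppa4 were therefore exchanged between the platforms. These orders were not tested. Dppa1, a gene of the same naming series, had 0 reads in 7 libraries and 1 read in cDNA Day4 replicate 2.

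**Figure D1:**
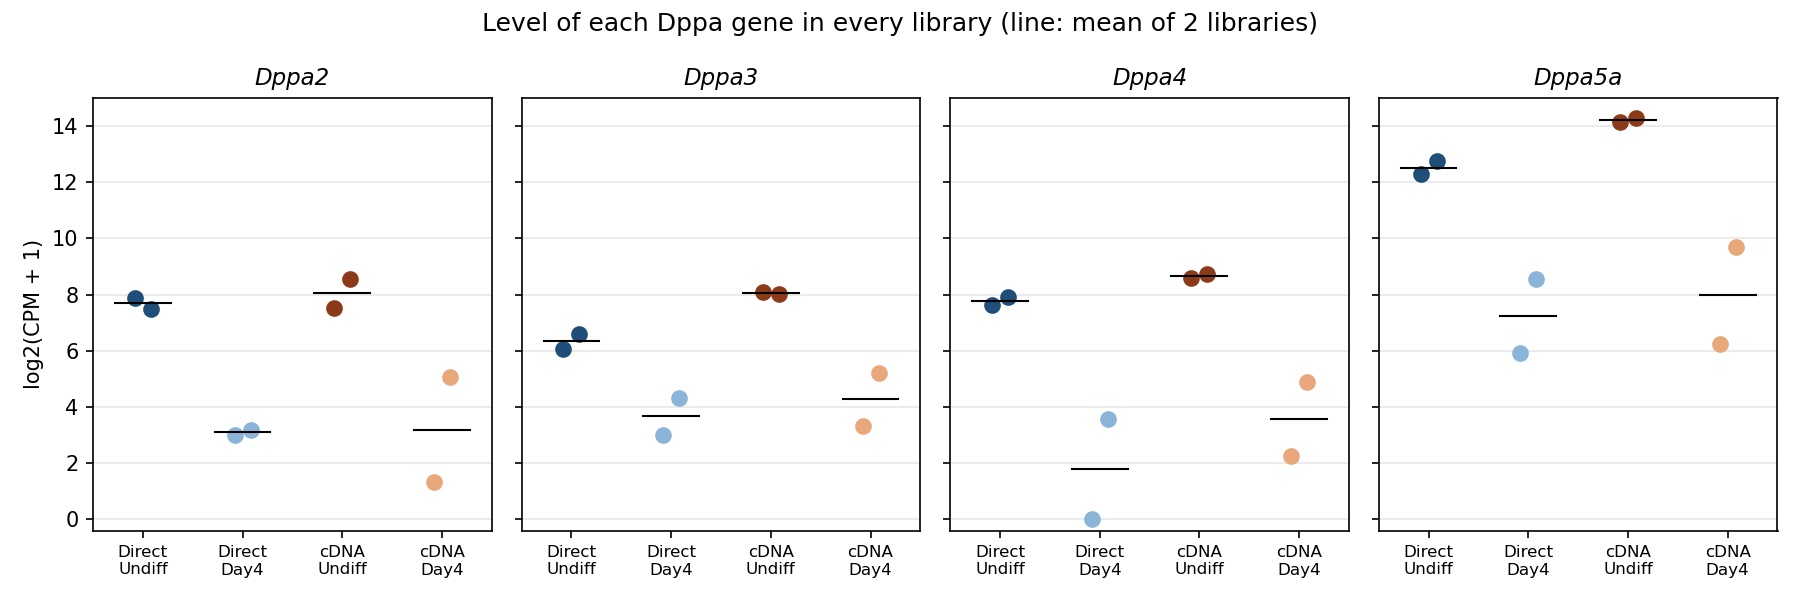
Level of each Dppa gene as log2(CPM + 1) in the 8 libraries. Each point is 1 library, and each line is the mean of the 2 log values of a group. Within each platform both Undiff points lie above both Day4 points for every gene, and Dppa5a is the highest.

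To ask how these genes responded to differentiation, Day4 was compared with Undiff on each platform. All 4 genes fell on both platforms. Mean Day4 levels were 2.46% to 16.0% of the Undiff mean in Direct RNA and 2.35% to 8.43% in cDNA. A gene was called as differentially expressed (DEG) by DESeq2 when its adjusted p-value reached 0.05 or less, its log2 fold change was 1 or more in size and its normalized reads averaged 5 or more. The background share of genes called lower was 7.67% of 9646 genes in Direct RNA and 9.24% of 10271 genes in cDNA, against 4 of 4 members on each. Both Undiff libraries lay above both Day4 libraries for 4 of 4 members, while 30.3% of the 9646 genes did so in Direct RNA and 23.2% of the 10271 in cDNA. In these bulk libraries fewer cells expressing a gene and less RNA per cell cannot be told apart.

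Dppa2 had 82 and 162 reads in Direct RNA Undiff and 2 and 6 reads in Direct RNA Day4. Its level went from 235 and 179 CPM to 7.06 and 8.14 CPM. Both Day4 libraries were low, on too few reads to compare them with each other. DESeq2 gave a log2 fold change of -4.57 ± 0.63 (SE), with an adjusted p-value of 7.7e-11. This call held without any 1 of the 4 libraries, with log2 fold changes from -4.58 to -4.32.

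In cDNA the Dppa2 counts were 175 and 793 in Undiff against 2 and 67 in Day4. The corresponding levels were 185 and 380 CPM, then 1.52 and 32.3 CPM. Replicates therefore disagreed within both groups, although the groups did not overlap. The log2 fold change was -3.51 ± 1.25 with an adjusted p-value of 0.047, just inside the threshold. With TMM normalization factors in the same test, the adjusted p-value was 0.054. It was 0.26 without Undiff replicate 1 and 0.51 without Undiff replicate 2 (log2 fold changes -3.24 and -2.64). Without Day4 replicate 2 the log2 fold change was -6.90.

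Dppa4 had 69 and 220 reads in Direct RNA Undiff, and 0 and 8 reads in Day4. These were 198 and 242 CPM against 0 and 10.9 CPM, where the count of 0 allowed up to 10.6 CPM. The log2 fold change was -4.76 ± 0.65 with an adjusted p-value of 4.2e-11. Without Undiff replicate 1 the adjusted p-value was 0.47 (log2 fold change -2.83), and without Undiff replicate 2 it was 0.67 (-2.68). The log2 fold change was -4.08 and -5.96 without Day4 replicates 1 and 2, and the call held. In cDNA Dppa4 went from 362 and 882 reads to 5 and 60, which was 382 and 422 CPM against 3.79 and 28.9 CPM. Its Undiff replicates were close and its Day4 replicates were not. Here the log2 fold change was -4.80 ± 0.55 with an adjusted p-value of 1.4e-15, which became 0.053 and 0.072 without Undiff replicates 1 and 2 (log2 fold changes -3.97 and -3.94). Without Day4 replicates 1 and 2 the log2 fold change was -4.01 and -6.50.

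The balance of the pair also varied between replicates. Dppa2 made up 54.3% and 42.4% of the summed Dppa2 and Dppa4 reads in Direct RNA Undiff, with 95% Wilson intervals of 46.4% to 62.0% and 37.6% to 47.4%. In cDNA Undiff the shares were 32.6% (28.8% to 36.7%) and 47.3% (45.0% to 49.7%). In Day4 the sum was 127 reads in cDNA replicate 2, of which Dppa2 made up 52.8% (44.1% to 61.2%). The other Day4 libraries held 2, 14 and 7 reads of the pair, too few to place the share. The share showed no common direction between states or platforms, and it was not tested.

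In mean CPM, Dppa3 kept the largest share of its Undiff level among the 4 members, although in the cDNA fit the log2 fold change of Dppa2 was smaller in size. In Direct RNA, Dppa3 had 23 and 88 reads in Undiff and 2 and 14 in Day4, or 66.0 and 97.0 CPM against 7.06 and 19.0 CPM. The groups did not overlap, and the mean Day4 level was 16.0% of Undiff. The estimated log2 fold change was -2.47 ± 0.71 with an adjusted p-value of 0.0070. This call was lost without each library in turn. The adjusted p-value was 0.090 and 0.66 without Undiff replicates 1 and 2, and 0.17 and 0.080 without Day4 replicates 1 and 2, while the log2 fold change stayed between -3.08 and -1.95. In cDNA the Dppa3 counts were 261 and 534 in Undiff and 12 and 74 in Day4. The levels were 275 and 256 CPM, then 9.10 and 35.6 CPM, and the Day4 mean was 8.43% of Undiff. This gave a log2 fold change of -3.81 ± 0.51 with an adjusted p-value of 1.4e-11, and the call held without any 1 library. The log2 fold change was -3.14 without Day4 replicate 1 and -4.83 without Day4 replicate 2.

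Dppa5a fell from 4985 and 6850 CPM to 59.97 and 371.5 CPM in Direct RNA, from reads of 1737 and 6216 to 17 and 274. In cDNA it fell from 18120 and 20190 CPM to 75.1 and 826 CPM, and the Day4 libraries still held 99 and 1715 reads. Undiff replicates were close, whereas Day4 replicate 2 was far above replicate 1 on both platforms. The log2 fold change was -4.20 ± 1.00 in Direct RNA (adjusted p-value 0.00060) and -5.09 ± 1.02 in cDNA (2.3e-05). In Direct RNA the adjusted p-value was 0.067 and 0.19 without Undiff replicates 1 and 2 (log2 fold changes -3.94 and -3.52). In cDNA it was 0.045 and 0.056 (-4.34 and -4.33). Without Day4 replicate 2 the log2 fold changes were -6.60 and -7.99.

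**Figure D2:**
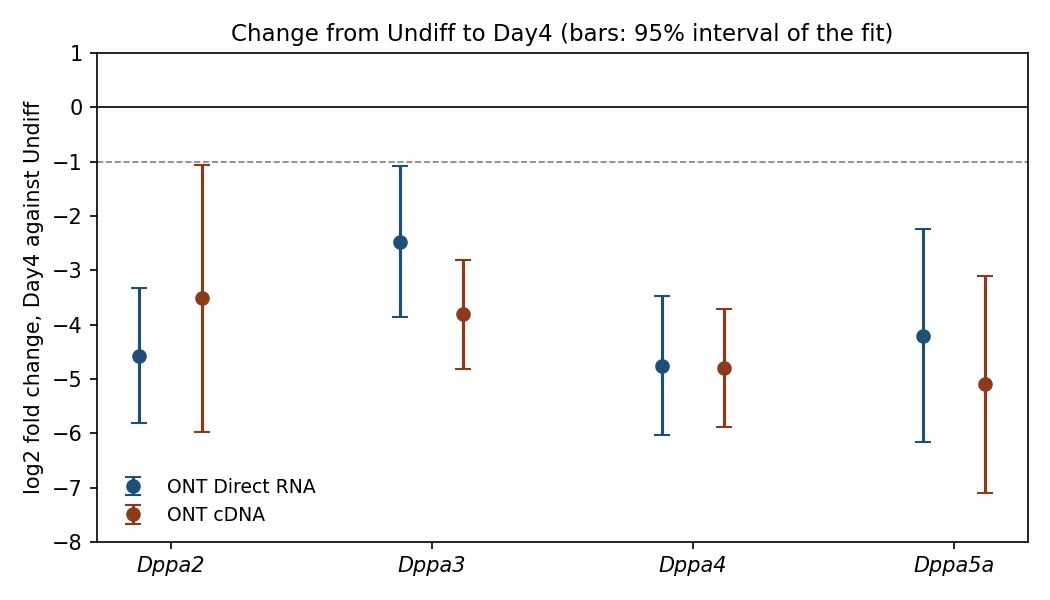
Log2 fold change of Day4 against Undiff for each Dppa gene on ONT Direct RNA and ONT cDNA, as estimated by DESeq2. Bars are 95% intervals of the fit and the dashed line marks a change of 1 on the log2 scale. All 8 estimates lie between -5.09 and -2.47, and the intervals of the 2 platforms overlap for every gene.

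Whether the fall differed between platforms was tested as an interaction of platform and state over all 8 libraries. The test called 2 of 17267 genes, 0.0116%, and none of the 4 members. The difference in log2 fold change, cDNA minus Direct RNA, was 0.37 for Dppa2 with a 95% interval of -2.97 to 3.71. It was 0.13 (-2.96 to 3.22) for Dppa4, -1.01 (-4.12 to 2.09) for Dppa5a and -1.35 (-2.98 to 0.28) for Dppa3. These intervals are wide, and they do not show that the platforms gave the same change. The unadjusted p-values of the DESeq2 fit ran from 0.10 to 0.93, so 0 members were under 0.05, beside 161 genes (0.932%) of the table. If no gene differed, a share near 0.05 would be expected. The test was therefore conservative here, and 0 members called says little. edgeR called 0 of the 4 as well. With cDNA Day4 replicate 2 left out, the difference for Dppa2 was -2.88, for Dppa3 -2.47, for Dppa4 -1.92 and for Dppa5a -3.33. Unadjusted p-values were then 0.032, 0.0075, 0.067 and 0.017, and none passed adjustment.

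The Day4 replicates differed for Dppa5a on both platforms. The Dppa5a level in Day4 replicate 2 was 6.19 times that in replicate 1 in Direct RNA and 10.99 times in cDNA. Replicate 1 retained 1.01% and 0.392% of the Undiff mean on the 2 platforms, and replicate 2 retained 6.28% and 4.31%. Dppa3 was 2.69 and 3.91 times higher in replicate 2. Dppa4 was 7.62 times higher in cDNA, against 8 reads and 0 in Direct RNA. Dppa2 was 21.3 times higher in cDNA replicate 2, on 67 reads against 2, and 1.15 times in Direct RNA.

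Ratios between the Day4 replicates were next taken from CPM + 1, which makes them smaller than the CPM ratios above. Among 9055 genes with at least 10 reads over the 2 Day4 libraries of each platform, 31 (0.342%) were at least 3-fold higher in replicate 2 on both platforms. Dppa5a was among them, and Dppa3, the other member with enough reads, was not. Other ESC transcripts differed in the same direction. Of 14 ESC-associated transcripts 7 had enough reads and 3 passed the 3-fold mark on both platforms, namely Pou5f1, Fbxo15 and Utf1. Pou5f1, the core pluripotency factor Oct4, was at 7.06 and 62.4 CPM in Direct RNA Day4 and at 1.52 and 26.5 CPM in cDNA Day4. The summed level of 9 pluripotency markers was 77.6 and 180 CPM in Direct RNA Day4 replicates 1 and 2, and 11.4 and 131 CPM in cDNA. The summed retinoic acid markers were at 1020 and 1101 CPM, and at 1254 and 1773 CPM, in the same order. Mesenchyme markers summed to 2999 and 1327 CPM and endoderm markers to 1051 and 682 CPM in Direct RNA Day4, lower in replicate 2, and to 236 and 277 CPM and 209 and 249 CPM in cDNA Day4. Replicate 2 is not stated to be the same culture on both platforms. Deviations of same-numbered Day4 libraries correlated at -0.42 between platforms over 1395 genes. Any part that undifferentiated cells play in the members' Day4 levels was not tested.

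**Figure D3:**
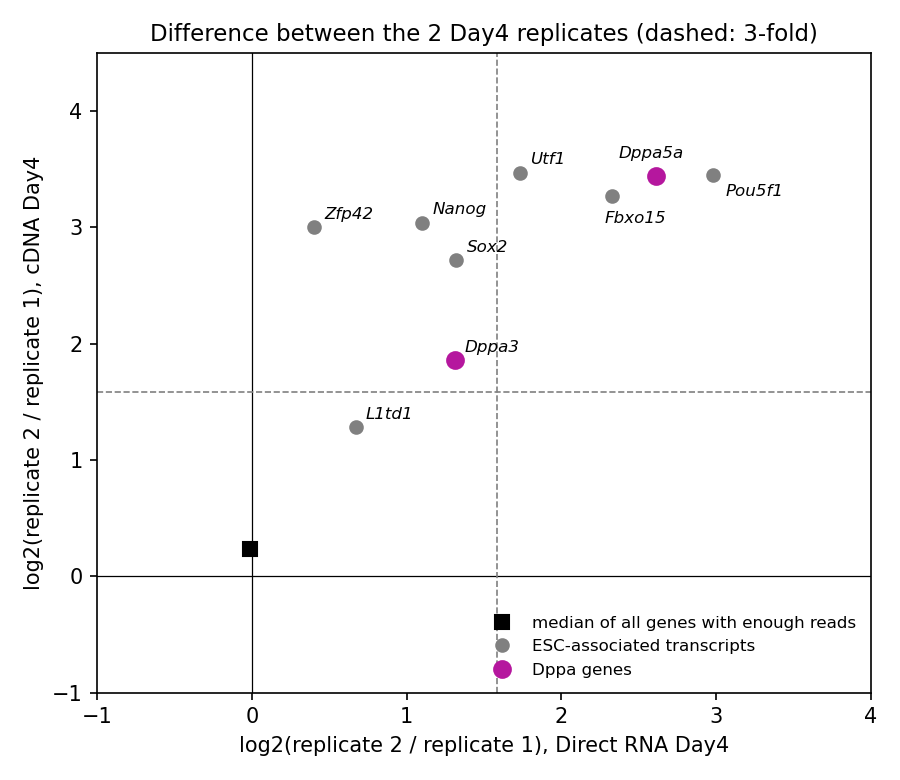
Log2 ratio of CPM + 1 in Day4 replicate 2 over CPM + 1 in replicate 1, on ONT Direct RNA (horizontal) and ONT cDNA (vertical). Points are the Dppa genes and ESC-associated transcripts that had enough reads. The square is the median of 9055 genes and dashed lines mark 3-fold. Dppa5a lies at 2.61 and 3.44, close to Pou5f1 and Fbxo15, and Dppa3 lies at 1.31 and 1.86.

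The platforms were compared directly in Undiff. Relative to the other genes of a library, all 4 members were higher in cDNA than in Direct RNA, and 17.5% of 9437 genes were called higher. The log2 fold changes of cDNA against Direct RNA were 2.49 ± 0.33 for Dppa5a, 2.45 ± 0.42 for Dppa3, 1.66 ± 0.36 for Dppa4 and 1.25 ± 0.41 for Dppa2. The adjusted p-values were 4.6e-12, 1.6e-07, 7.7e-05 and 0.015. On the CPM scale the differences were smaller, at 3.24, 3.26, 1.82 and 1.36 times, because the scaling of the test moved the platforms apart by 0.87 on the log2 scale. Both cDNA libraries lay above both Direct RNA libraries in CPM for 3 members, as for 22.5% of genes, and Dppa2 overlapped. The Dppa2 call was lost without either Direct RNA library (adjusted p-values of 0.24 and 0.44) or without cDNA replicate 2 (0.41). The Dppa4 call was lost without Direct RNA replicate 1 (0.10).

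Other ESC genes were read in the same comparison. Of 14 ESC-associated transcripts, Tcl1 was called higher in cDNA, Khdc3, Eras and Sox2 were called lower, and 10 were not called, beside 1131 of the 9437 genes called lower. The 3 lower calls fell to 1 without either Direct RNA library or without cDNA replicate 1, and the Tcl1 call was lost without either Direct RNA library. Among those not called, the log2 fold change was -0.54 for Pou5f1, -0.67 for Nanog, 0.37 for Zfp42 and 0.87 for Tdgf1, with adjusted p-values of 0.29, 0.30, 0.59 and 0.057. The members were not tested against this list.

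The platform difference moved with transcript length. Among genes whose longest transcript was at most 1000 bases the median log2 fold change of cDNA against Direct RNA was 1.75, and 59.2% of 480 genes were called higher. The medians were 0.84 for 1000 to 2000 bases, 0.16 for 2000 to 3000 bases and -0.45 for longer transcripts. Dppa5a and Dppa3, the members of the shortest class, had larger platform differences in this fit than Dppa4 of the second class and Dppa2 of the third. Which of Dppa5a and Dppa3 was larger changed with the scale and the fit. Within its own length class each member lay above 79.1% to 81.2% of genes. The part that length plays in the members' platform difference was not tested.

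**Figure D4:**
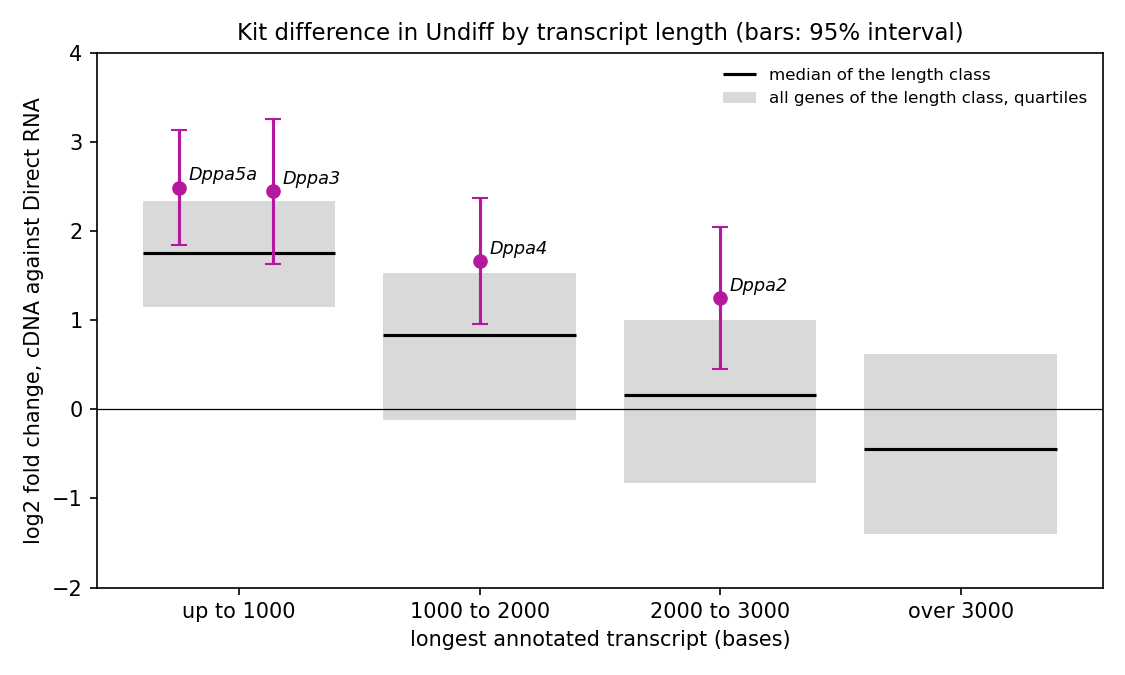
Log2 fold change of ONT cDNA against ONT Direct RNA in Undiff by length of the longest transcript. Grey boxes span the quartiles of all genes of a length class with the median as a line, and points are the Dppa genes with 95% intervals of the fit. The medians run from 1.75 to -0.45 and every Dppa gene lies above the upper quartile of its class.

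Genes linked to the known roles of the members were read next, in lists given with their counts of DEGs. They were picked from background knowledge and with earlier results of these data in view. Of the 14 ESC-associated transcripts, 14 fell in Direct RNA and 12 of the 13 with a sufficient mean count fell in cDNA, with median log2 fold changes of -5.07 and -5.13. Over all genes tested, 7.67% and 9.24% were called lower and the median was 0.03 and 0.00, and these are the values beside which the counts of each list below stand. Many genes of the falling lists had few reads in Day4 and reached the mean count needed for a call through Undiff. Counts for such lists describe them and are not a test of them. In what follows, paired values in parentheses are log2 fold changes of Day4 against Undiff in Direct RNA and in cDNA. Tdgf1, a co-receptor of Nodal, fell (-7.10 and -7.83), and Utf1, a chromatin factor of ESCs, fell (-5.67 and -5.13). Zfp42, known as Rex1, fell (-6.25 and -5.33). The median change of the 4 members was -4.39 and -4.31. Without single libraries, 9 to 14 transcripts of the list were called lower in Direct RNA and 4 to 13 in cDNA, with the lowest counts without Undiff replicate 2 of each platform.

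The 2-cell-like programme is the gene set that Dppa2 and Dppa4 are known to activate, and it was detected at a low level. Of 34 listed genes 29 were in the table, and 4 in Direct RNA and 9 in cDNA reached a mean normalized count of 5. DESeq2 called 0 of them as DEGs on either platform. At an unadjusted p-value under 0.05, 4 of the 4 passed in Direct RNA and 0 of the 9 in cDNA. Of all genes, 2965 of 9646 and 3206 of 10271 passed this unadjusted threshold. edgeR called 4 and 1 genes of the list lower, beside 1351 and 1476 of all these genes. The 4 Direct RNA genes reached the mean count of 5 through Undiff, so their count is not a test of the list. The median log2 fold change of the tested genes of the list was -2.79 in Direct RNA and -1.07 in cDNA.

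The summed level of the 29 genes was 224 and 106 CPM in Direct RNA Undiff and 3.53 and 16.3 CPM in Direct RNA Day4. In cDNA it was 92.8 and 203 CPM in Undiff and 15.9 and 154 CPM in Day4. The sum in cDNA Day4 replicate 2 thus lay between the 2 cDNA Undiff libraries. In that Day4 library Dppa2 and Dppa4 stood at 11.4% and 7.19% of their Undiff means. Zscan4c, a 2-cell embryo factor that acts at telomeres, had 12 and 104 reads in cDNA Undiff and 5 and 68 in cDNA Day4. Its counts in Direct RNA were 10 and 13 in Undiff and 1 and 2 in Day4. Zscan4f had 16 and 47 reads in cDNA Undiff and 1 and 50 in cDNA Day4. Zscan4a had log2 fold changes of -3.24 in Direct RNA and -1.09 in cDNA and Gm5662 of -2.10 and -1.35. Neither was called by DESeq2, and both were among the 4 genes called lower by edgeR in Direct RNA. The Zscan4 genes are near-identical copies, so the split of reads between them is uncertain. Whether the programme differed between the platforms was not tested.

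**Figure D5:**
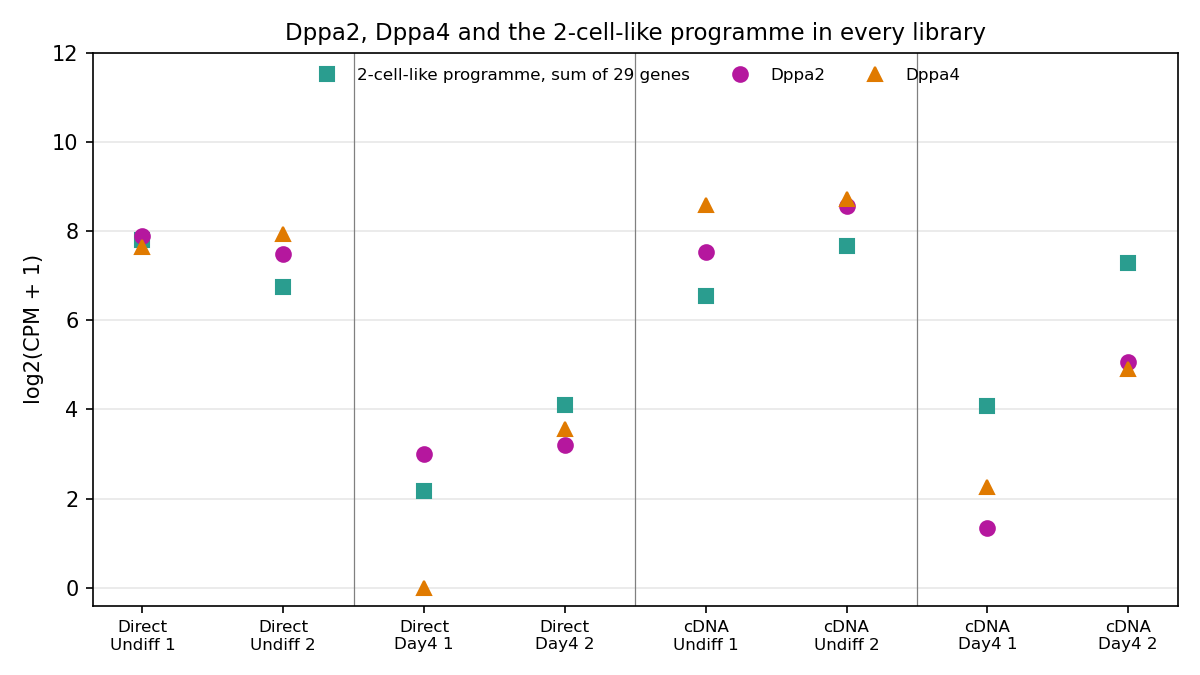
Level of Dppa2, of Dppa4 and of the summed 2-cell-like programme (29 genes) as log2(CPM + 1) in each of the 8 libraries. In cDNA Day4 replicate 2 the programme is at 154 CPM, within the 92.8 to 203 CPM of cDNA Undiff, and the 2 Dppa genes are at 32.3 and 28.9 CPM.

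Dppa2 and Dppa4 are also known to recruit the complexes of bivalent chromatin, Polycomb PRC2 and the Kmt2b (MLL2) complex. Of 12 such genes, 7 fell in Direct RNA and 5 fell in cDNA, with medians of -1.51 and -1.25. Without single libraries the counts were 1 to 6 in Direct RNA and 4 in cDNA, the lowest without Direct RNA Undiff replicate 2. Eed, a core PRC2 subunit, fell (-2.30 and -2.05), and Jarid2, which guides PRC2 to its targets, fell (-1.997 and -1.72). Dpy30 and Ash2l, shared by the Kmt2 complexes, fell (-1.49 and -1.54, then -1.63 and -2.73). Mtf2, another PRC2 partner, fell (-1.88 and -2.47). Ezh2, the PRC2 enzyme, had log2 fold changes of -0.32 and -0.31 and Kmt2b of -0.48 and -0.19, and neither was called. Men1 of the Kmt2b complex was at 0.92 and 1.84 and was called higher by edgeR in cDNA but not by DESeq2, and Cxxc1 was at 0.22 and 0.67.

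For Dppa3, 11 genes of DNA methylation were read. Uhrf1, the hemimethylated-DNA reader that Dppa3 displaces from chromatin, fell (-2.15 and -1.86). Its level went from 166 and 256 CPM to 70.6 and 33.9 CPM in Direct RNA and from 173 and 203 CPM to 47.8 and 79.4 CPM in cDNA. In all, 5 of 10 fell in Direct RNA and 7 of 11 fell in cDNA, and without single libraries 1 to 5 and 1 to 6 did, the fewest without Undiff replicate 2 of each platform. Zfp57 and Trim28, which protect imprints, fell (-2.75 and -1.46, then -1.30 and -1.36). Ehmt2, a histone H3 lysine methyltransferase, was at 0.18 in Direct RNA and fell by 1.86 in cDNA. Dnmt3b, a de novo methyltransferase, fell (-4.44 and -3.96), and so did Tet1, a methylcytosine oxidase (-2.825 and -2.56). Their relatives Dnmt3a and Tet3 did not, at 0.29 and 1.01 for Dnmt3a and 2.32 and 2.30 for Tet3. DESeq2 called neither Dnmt3a nor Tet3, and edgeR called Tet3 higher in cDNA.

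As Dppa3 marks germ cells, 20 germline genes were included. In Direct RNA 10 had enough reads and 4 fell, beside 7.67% of all genes, and in cDNA 15 had enough reads and 3 fell, beside 9.24%. edgeR called 6 and 8 lower, beside 1351 of 9646 and 1476 of 10271 genes, and without single libraries DESeq2 called 1 to 2 and 1 to 3. Tex19.1, which restrains retrotransposons, fell (-4.40 and -3.73). Tfap2c, a germ cell specifier, fell by 3.78 in Direct RNA and was at -3.10 in cDNA (adjusted p-value 0.11). Syce1, of the synaptonemal complex, fell by 3.30 in cDNA and was at -2.53 in Direct RNA. Ddx4, a germ cell RNA helicase, fell by 3.77 in Direct RNA and was at -2.18 in cDNA.

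Around Dppa5a, 9 genes of the KH-domain family and the maternal complex were read. Khdc3 fell (-6.11 and -5.39), and Ooep fell by 4.197 in cDNA and was at -3.40 in Direct RNA (adjusted p-value 0.068). The call of both was lost in cDNA without Undiff replicate 2. Ooep had 55 and 314 reads in Direct RNA Undiff against 0 and 14 in Day4, and 163 and 565 reads in cDNA Undiff against 0 and 17. As with Dppa5a, replicate 2 held the higher Day4 level on both platforms. Tle6 had log2 fold changes of -1.20 and -1.49 with neither called, and Padi6 stayed under 5 in mean count. Khdc1a, Khdc1b, Khdc1c, Nlrp5 and Nlrp2 had 0 reads in all 8 libraries.

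Markers of other cell types mostly moved in the opposite direction. Of 8 extra-embryonic endoderm markers 5 rose in Direct RNA and 4 in cDNA, and of 8 fibroblast and mesenchyme markers 6 and 5 rose. With 1 library left out, the calls for Direct RNA numbered 3 to 4 of the endoderm markers and 4 to 6 of the mesenchyme markers. For cDNA they numbered 3 and 2 to 4, with 2 mesenchyme markers left without Undiff replicate 2 and without Day4 replicate 2. Thy1 of the mesenchyme list went the other way, at -1.18 and -2.85, and was called lower by edgeR in cDNA. Of 9 retinoic acid markers 8 rose in Direct RNA and 9 in cDNA. The Direct RNA count was 5 without Undiff replicate 2 and without Day4 replicate 2, and 8 to 9 were called in cDNA with 1 library left out. The shares of all genes called higher were 9.54% and 8.69%. Most of these markers had few reads in Undiff and reached the mean count needed for a call through Day4, so the counts describe the lists and are not a test of them. Endoderm markers summed to 1.05 to 14.3 CPM in Undiff and 209 to 1051 CPM in Day4, and mesenchyme markers to 4.79 to 14.3 CPM and 236 to 2999 CPM. Gata6, Afp and Ttr of the endoderm list had 0 reads in all 4 Undiff libraries, as did Col1a2, Col3a1 and Postn of the mesenchyme list. Sox17 and Foxa2 of the endoderm list had reads in Direct RNA Undiff. Sox17, Foxa2 and Sox7 were called on neither platform, and Afp was not called in cDNA. Whether cells of these types were present, and any part they play in the members' fall, was not tested.

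The neighbours of each member on the chromosome were examined next. Morc1, the first counted gene after Gm5485 downstream of Dppa2 and a germline repressor of transposons, had 48 and 180 reads in Direct RNA Undiff and 0 and 3 in Day4. In cDNA its reads were 151 and 749 in Undiff and 0 and 12 in Day4, and it fell (-5.44 and -4.90). Gm5485, between Dppa2 and Morc1, and Trat1 beyond it had 0 reads in all libraries. Morc1 lay 111513 bases from Dppa2. On the other side the nearest counted genes were much farther from Dppa4, with Pvrl3 at 1785207 bases, Gm4737 at 2128655 and Cd96 at 2163481. Gm4737 (log2 fold changes -0.82 and -0.48) and Pvrl3 (0.05 and -0.29) were not called, and Cd96 had at most 1 read.

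Dppa3 lies between Gdf3 and Nanog. Gdf3, a TGF-beta family ligand, fell (-5.11 and -5.21), and Nanog, a core pluripotency factor, fell (-5.07 and -3.97). Slc2a3, a glucose transporter next to Nanog, fell (-1.44 and -1.66). Apobec1 and Foxj2 had at most 15 reads in any library and were not called. Beside Dppa5a, Ooep lay 7931 bases away and is described above. Ddx43, Gsta2, Omt2a, Omt2b and Mb21d1 had at most 6 reads in any library.

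Finally, genes with the pattern closest to each member over the 8 libraries were sought among 10865 genes, by the root mean square distance between centred log2(CPM + 1) profiles. The closest to Dppa5a were Gtsf1l (0.31), Platr17 (0.57) and Dppa4 (0.58), followed by Tcl1 and Morc1. Dppa4 was in turn closest to Dppa5a, followed by Platr14, Gdf3, Hsf2bp and Gtsf1l at distances up to 0.74. Dppa2 was closest to Cpsf4l (0.59), Sfn, EU599041, Tdrd12 and Fgfbp1. Dppa3 was closest to Fabp3 (0.39), Gm6792, Fam81a, Frrs1 and 1700019A02Rik. The median distance of all genes was 2.27 to 3.47. The neighbours Dppa2 and Dppa4 were 1.20 apart, and Dppa2 ranked 47 among the genes closest to Dppa4. Several of these genes had few reads, such as Gm6792 with 0 to 69 in a library. Only 0 to 3 of each 5 names were kept under another pseudocount or centring within each platform, so the names are a description of these libraries.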

How the data were processed

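The 8 libraries were sequenced from R1 mouse ESCs in 2 states on 2 ONT platforms, with 2 separately grown cultures per group. The authors basecalled the reads, aligned them to mm10 with minimap2 and counted reads per gene symbol with HTSeq, on the RNA strand for Direct RNA (strand use is not given in the sources used here for cDNA), and deposited whole-number counts, which are the values used here. The 5 counter lines that name no gene, 38.1% to 61.7% of all reads of a library, were left out.

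Counts were tested with DESeq2 1.42.0 (R 4.3.3, shrunken fold changes, Cook's and independent filtering off) over all genes, separately per platform. The interaction was fitted without shrinkage over 8 libraries. Adjusted p-values are Benjamini-Hochberg values from DESeq2 unless edgeR 4.0.16 (quasi-likelihood, TMM factors) is named. CPM used reads on genes. Of the symbols, 24062 (98.5%) matched GENCODE, from which lengths, positions and sequences were read. Genes named beside the members were taken from the 4 most abundant in Undiff of each list, the 3 nearest on each side of a member (1 is not reported here) and the 5 closest in pattern, apart from Ezh2, Kmt2b, Men1, Cxxc1, Dnmt3a and Tet3 and genes named as called, at 0 reads or differing between replicates, which were chosen after their values were seen. The members and lists were chosen with earlier results of these data known. Alternatives were another tool or scaling, a count filter, a replicate block and leaving out each library.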

Additional observations from a re-analysis of the deposited data

How the results depend on the processing

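Leaving out 1 library at a time kept 1 to 3 of the 4 members called lower in Direct RNA, 1 to 4 in cDNA, and 2 to 4 called higher in cDNA than in Direct RNA in Undiff, and no direction changed in these comparisons. With 3 libraries left, the lone sample of a group was assumed to vary like the others. In the platform by state interaction no member was called in any setting, but its sign was not stable for 3 of them. Over single libraries left out it ran from -2.88 to 1.22 for Dppa2, from -1.92 to 3.58 for Dppa4 and from -3.33 to 0.92 for Dppa5a, and the cause was not tested. Dppa3 stayed negative, from -2.47 to -0.24.

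The replicate numbers are not stated to pair libraries. Deviations of same-numbered libraries correlated at 0.21 between states in Direct RNA, 0.50 in cDNA and 0.12 between platforms in Undiff, but at -0.42 between platforms in Day4 (1395 genes). With the replicate number as a block, 3 members were called in Direct RNA (Dppa3 had an adjusted p-value of 0.076) and 4 in cDNA (Dppa2 had 6.3e-12). Genes called lower over the table went from 740 to 388 in Direct RNA. A pairing crossed in Day4, chosen after seeing the data, called 1 gene in the interaction against 2, and gave -0.48 for Dppa2. With a block for each culture Dppa5a had an unadjusted p-value of 0.026 in the interaction and an adjusted one of 1.0. The replicate block left 2 mesenchyme and 3 endoderm markers called higher in Direct RNA, and 0 and 2 in cDNA. It left 5 and 8 retinoic acid markers, and 2 and 3 germline genes called lower.

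edgeR called all 4 members between states and between platforms and none in the interaction, and it called 1351 genes lower in Direct RNA, 1476 in cDNA, and 11 in the interaction. It called 1687 and 1598 genes higher, against 920 and 893 by DESeq2. Of 32 member levels rescaled by TMM or DESeq2 size factors, 13 moved by more than the replicate SD. Relative to CPM, size factors shifted Day4 against Undiff by -0.13 (log2) in Direct RNA and -0.36 in cDNA.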
